A study of Oryza sativa with 3 samples.

Results

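Rice small RNA libraries of 3 lines held 754 precursors with at least 1 aligned read, of which 238 were predicted by the study's own search and not known rice MIR precursors. The predicted precursors described here were chosen by their reads: 5 or more reads summed over the 3 libraries, and a tag length with the most reads of 20, 21 or 22 nt. A tag is a distinct read sequence with its read count. By this rule 64 of the 233 predicted precursors with enough reads were taken, 39 with most reads at 21 nt, 20 at 22 nt and 5 at 20 nt. The number and length of the reads chose these precursors, so both are given as a description. The smallest had 6 reads, and no predicted precursor with most reads at 20 to 22 nt fell below the minimum. Just outside the length limits lay 6 predicted precursors with most reads at 19 nt and 4 with most reads at 23 nt.

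The wild type was Nipponbare (NP), a japonica rice. Ov199 carried an OsNAR2.1 construct behind the Ubi promoter (pUbi-OsNAR2.1), and the RNAi line carried an RNAi construct against OsNAR2.1, a partner protein of high affinity nitrate transporters. Field-grown plants were used, and RNA from leaves, flowers and stems was pooled at the blooming stage into 1 library per line, so there were no replicates, each transgenic group was 1 line, and organs cannot be told apart. The title of the RNAi library names RNAi and its line label reads Ni, a short form that no source explains. OsNAR2.1 mRNA is not measured by these libraries. NP gave 49341 aligned reads, Ov199 94154 and RNAi 62724, so that 1 read was worth 20.3, 10.6 and 15.9 normalized counts (reads per 1000000 aligned reads). A count of 0 allows up to 3 reads, or 60.8, 31.9 and 47.8 normalized counts. Intervals and these limits cover counting error only.

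Plant miRNAs are cut from hairpin precursors by a Dicer-like enzyme, which releases a duplex of the miRNA and its partner strand from the opposite arm, each strand ending in a 3′ overhang of 2 nt. The cut is usually precise, so that most reads of a true miRNA share their first base. Plants also make siRNAs from long double-stranded RNA of repeats and transposons. These are often 24 nt long, spread over many positions and match many loci. Opposite-arm reads, precise ends, exact matches and reads at other precursors were therefore examined for each precursor. No genome was used, so matches of a tag outside the known and predicted precursors cannot be seen.

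Printed here are the most read tags of the 6 most read precursors with the cleanest read patterns, those with 75% or more of their reads at 1 first base, no read at another precursor and an exact most read tag. Capitals mark the seed, bases 2 to 8 from the 5′ end.
chr1_40113: gAGCACAAgtactgaggcacta
chr1_40092: cTGTGGATacatgttggctgc
chr12_7660: tGTGTGGAtgctgagacagtg
chr12_7644: tGGAGACTggaagcatgcatc
chr7_18374: tGTAGAGCtgtagtagagggt
chr6_24241: tGATCGCTggatactatggat

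In all, 12 of the 64 precursors met these 3 conditions, with 6 to 229 reads each, and 9 of their 12 most read tags started with T (U in the RNA). Only 2 of these 12, chr1_40113 with 2 reads and chr7_18374 with 1 read, had any read on the opposite arm, and none of these reads paired with the most read tag by the duplex criterion used below. The condition on first bases counts the reads of both arms in its total, so it favours precursors with few opposite-arm reads. chr1_40113 was the most read of them, with 52 reads in NP, 107 in Ov199 and 70 for RNAi, or 1054, 1136 and 1116 normalized counts. These levels lay close together, and the ratio of Ov199 to NP was 1.08 (95% interval 0.767 to 1.53, exact). Of its reads 97.8% ended at the same last base, while 75.5% shared the first base. chr12_7660 had 15, 19 and 17 reads, with 92.2% at 1 first base, and its ratio of Ov199 to NP was 0.664 (0.320 to 1.40). chr6_24241 had 25 reads in 2 tags, and all of them shared their first base.

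Among all 64 precursors, 21 (32.8%) had 75% or more of their reads at the first base of the most read tag, 32 within 1 nt of it, and 6 reached 90%. The share ranged from 7.16%, at a precursor with tied tags described below, to 100%, with a median of 58.8%. Beside them, and with no test, 52 of the 223 known precursors of the same length class (23.3%) and 33 of the 147 predicted precursors with most reads at 23 to 25 nt (22.4%) passed 75%. Opposite-arm reads count in the total of this share and so lower it. Their median share was 11.1% at these known precursors, 1.44% at the 64 and 0% at the longer predicted ones. The most read tag started with T in 25 of the 64 (39.1%) and with A in 22 (34.4%). T led 117 of the 223 known precursors (52.5%), and A led 107 of the 147 predicted precursors of 23 to 25 nt (72.8%), which is the base that most 24-nt plant siRNAs start with. In 32 of the 64 the most read tag began at base 6 of the precursor, as it did in 62 of 147 predicted precursors of the longer class and in 1 of 223 known ones.

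**Figure D1:**
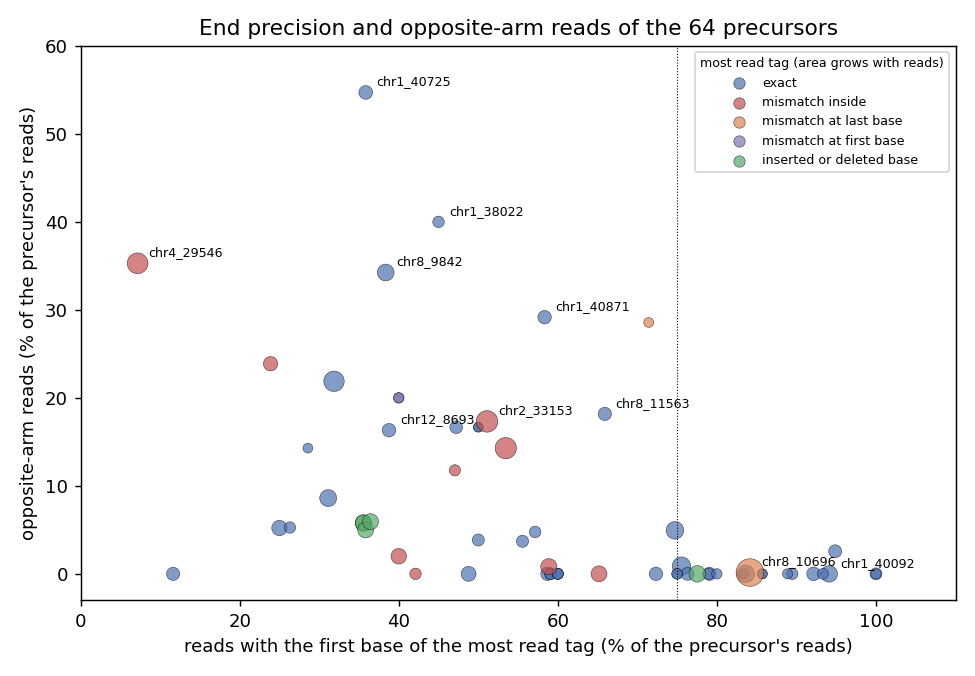
Share of reads at the first base of the most read tag (x axis, %) against the share of reads on the opposite arm (y axis, %) for the 64 precursors, 1 point each, with the area growing with the reads and the colour giving how the most read tag aligned. The dotted line is 75%, and of the 21 precursors at or to the right of it 3 had any opposite-arm read, while chr1_40725 was highest on the y axis at 54.7%. Opposite-arm reads count in the total of the x axis, so a large share of them keeps a precursor left of the line.

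Reads counted as opposite-arm, by position alone, were found at a smaller share of these precursors than of known ones, set side by side with no test. No hairpin fold was used, so reads of the loop or beside the tag are counted too. At chr6_23626, for example, the most read tag lay at bases 52 to 72 and 7 such reads at bases 28 to 51. At least 1 read that did not overlap the most read tag was found at 35 of the 64 precursors (54.7%), against 185 of 223 known precursors (83.0%) and 70 of 147 longer predicted ones (47.6%). There were 2 or more such reads at 26 of the 64. They came to 574 reads in all, and 13 precursors had them in each of the 3 libraries. When each opposite-arm tag was folded against the most read tag, 2 of the 64 (3.12%) gave a duplex of 15 or more base pairs with an overhang of 2 nt at both 3′ ends. The same criterion found 69 of the 223 known precursors (30.9%) and 2 of the 147 longer predicted ones (1.36%). Known precursors had a median of 54 reads against 38.5 for the 64, and the part of depth in this difference was not tested.

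The clearest duplex was that of chr8_11563, shown here with the 2 overhanging bases in capitals.
chr8_11563 most read tag: aggattagagggaactgaaCC
chr8_11563 opposite-arm tag: ttcagtttcctctaatatctCG
The first tag, at bases 6 to 26, had 7 NP, 8 Ov199 and 10 RNAi reads. The opposite-arm tag, at bases 48 to 69, had 1, 5 and 1 reads and formed 19 base pairs. Both strands were thus read in every library, although the partner strand rested on 7 reads. In total chr8_11563 had 12, 19 and 13 reads, and 65.9% of them, both arms included, had 1 first base. The ratio of Ov199 to NP was 0.830 (0.382 to 1.87) for this precursor. Its first tag also lay at bases 6 to 26 of chr7_18891, and the precursors had 36 reads in common, so these reads cannot be assigned to either.

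The other duplex belonged to chr4_29546, whose read pattern was spread out. Its 78 NP, 175 Ov199 and 138 RNAi reads were spread over 190 tags, and 2 tags were tied as the most read with 18 of the 391 reads each. The tie was settled by length, for a tag of 24 nt with a mismatch (T3C, written as the precursor's base, the position in the tag from its 5′ end, and the tag's base) and 0 NP, 10 Ov199 and 8 RNAi reads. The first base of that tag was shared by 7.16% of the reads. The tied tag was 21 nt long and exact, with 3, 7 and 8 reads, and its first base, further into the precursor, was shared by 24.8%. A duplex was found with either tag, and the reads that met the criterion were 5 of the 138 opposite-arm reads with the longer and 2 with the shorter. The 5 reads came from Ov199 and RNAi and none from NP. They were of tags at bases 2 to 24 that differed from each other in the last base, so not all of them can match the precursor exactly. Of all reads of chr4_29546, 32.5% were exact. Such ties, settled the same way, were found at 4 of the 64 precursors, and with the shorter tags the counts of precursors with opposite-arm reads, duplexes and precise first bases were 35, 2 and 21, as given above. Its reads started at 9 bases on the opposite arm and at 9 bases around the most read tag.

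Another precursor came close to the criterion. chr1_40871 paired with 14 base pairs and overhangs of 2 nt on both sides.
chr1_40871 most read tag: agctgccgactcattcaccCA
chr1_40871 opposite-arm tag: agtgaatgaagcgggaggtAA
The most read tag had 6, 11 and 0 reads in NP, Ov199 and RNAi, and the opposite-arm tag 1, 4 and 0. All 14 opposite-arm reads of chr1_40871 started at the same base, and they were found in each library (3, 7 and 4 reads). This precursor is not separate from a known one, since 44 of its 48 reads (91.7%) also aligned to osa-MIR319b, of a conserved plant miRNA family known to act on TCP transcription factor genes. Whether the tags printed here act on such genes was not tested.

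**Figure D2:**
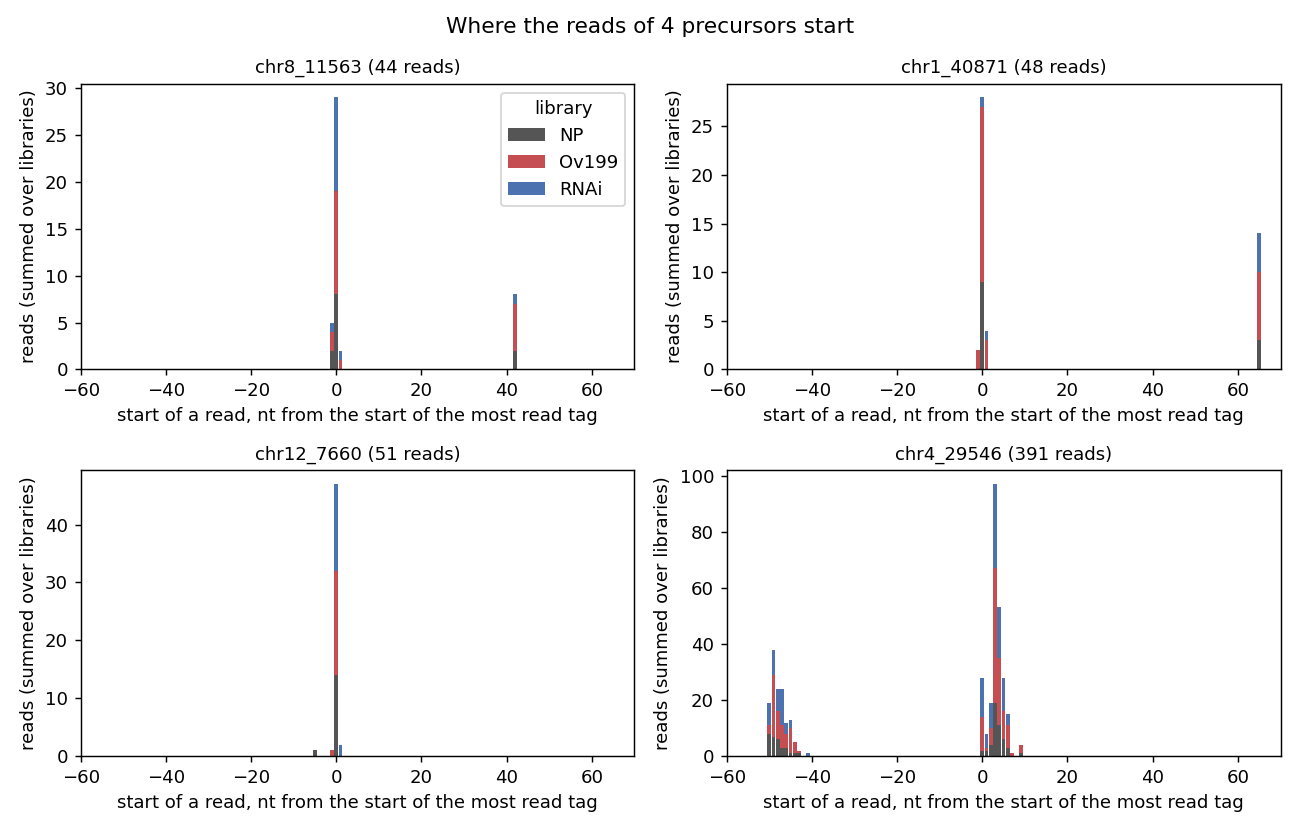
First base of each read, in nt from the first base of the most read tag (x axis), against reads stacked over the 3 libraries (y axis) for 4 precursors. chr8_11563 and chr1_40871 show 1 main start on each arm, chr12_7660 a single start with 92.2% of its reads, and chr4_29546 a spread of starts on both arms.

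chr12_8693 showed reads on both arms in 1 library only. Its most read tag had 1 read from NP, 9 from Ov199 and 0 from RNAi, and its 8 opposite-arm reads were all in Ov199, where 7 of them were 1 tag of 19 nt. These tags formed 16 base pairs but with overhangs of 4 and 3 nt.

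Known precursors accounted for part of the list. At 8 of the 64 precursors at least 50% of the reads also aligned to an osa-MIR precursor, and at 11 any read did. In total this was 174 of the 6183 reads summed over the 64 precursors (2.81%). Beside chr1_40871, chr1_40725 had 39 of its 53 reads in common with osa-MIR1846e, and chr1_38022 had 17 of 20 in common with osa-MIR159f. All 10 reads of chr5_22648 also lay at osa-MIR2869. At chr1_38022 12 reads overlapped the most read tag and 8 did not, of which 4 lay at bases 63 to 84 and 1 at bases 36 to 50. Its most read tag lay at chr1_40865 and chr1_41127 as well. The most read tags of chr1_38022 and chr1_40871 were the only distinct pair that had a seed in common.
chr1_38022: aGCTGCCGgttcatggatacc
chr1_40871: aGCTGCCGactcattcaccca
The miR159 family, known to act on MYB transcription factor genes, and the miR319 family are related in plants. These targets are those of the families in general. Which genes, if any, the tags printed here act on was not tested.

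The 64 precursors also had reads in common with each other. Joined wherever 50% or more of the smaller precursor's reads were the same, they formed 49 groups, of which 10 held 25 precursors, and 5 of the 64 repeated the read set of another exactly. At 29 precursors no read aligned to any other precursor, known or predicted, and at another 29 at least 50% did. chr5_19667, chr5_20983, chr10_3393 and chr6_24655 had 118 to 121 reads each, nearly all the same. chr2_33153 and chr2_31174 had 418 reads in common, and chr8_11521 and chr3_33970 had 100. Values of such precursors are not separate measurements.

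Several of the most read precursors had few reads that matched them exactly. Reads were summed over the 64 precursors, so that a read at several of them counts at each. Of these reads 37.5% had no recorded mismatch, insertion or deletion, and 32.6% had a mismatch inside the tag. A mismatch at the last base was found in 22.5% and an inserted or deleted base in 5.34%. The few others had a mismatch at the first base. The most read tag was exact at 46 of the 64 and inexact at 18, and the median precursor had 80.9% exact reads. Under 50% of the reads were exact at 23 of the 64. These included strongly read precursors and weakly read ones, such as chr1_37783 with 17 reads, of which 17.6% were exact. In these tags the mismatched base is in capitals.
chr2_33153: ctcGtcctaggtgaaacagcc
chr2_31174: ctcgtcctagGtgaaacagcc
chr8_11521: ttaggacaagGacgtggcatc
chr3_33970: ttaggacaaggacgtggcaTc
chr6_23458: tcacctaggacGaggacatgg
chr8_10696 was the most read of all, with 296 NP, 550 Ov199 and 498 RNAi reads. Of all its reads 2.83% were exact, which was 6, 10 and 22 reads. The tag at chr2_33153 (A4G) and chr2_31174 (A11G) was the same sequence with 54, 105 and 63 reads, and it matched neither precursor exactly. At chr8_11521 (A11G) and chr3_33970 (C20T) likewise 1 tag of 15, 33 and 16 reads lay with a mismatch at both. At these 4 precursors 6.25% to 9.87% of the reads were exact. chr6_26277 aligned its most read tag, 6, 18 and 8 reads, with a deleted base, and 25.4% of its reads were exact.

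The 4 precursors around chr5_19667 showed a difference only among their exact reads. The first tag here matches the precursor, and in the others a base is changed (in capitals) or missing.
chr5_19667, exact: cggcacggctactgtagcaggc
chr5_19667, A19G: cggcacggctactgtagcGggc
chr5_19667, a deleted A: acggcacggctactgtagcggc
These tags had 4, 0 and 8 reads, 0, 4 and 3 reads, and 4, 9 and 10 reads (NP, Ov199, RNAi). The exact reads of chr5_19667 came to 6, 10 and 23, and the others to 19, 38 and 25. In normalized counts the inexact reads were level at 385, 404 and 399, while the exact reads were 122, 106 and 367, with RNAi high. With all reads RNAi against Ov199 was not called (ratio 1.501, 0.985 to 2.29, adjusted p = 0.16 by Fisher's exact test), and with exact reads only it was (adjusted p = 0.009).

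**Figure D3:**
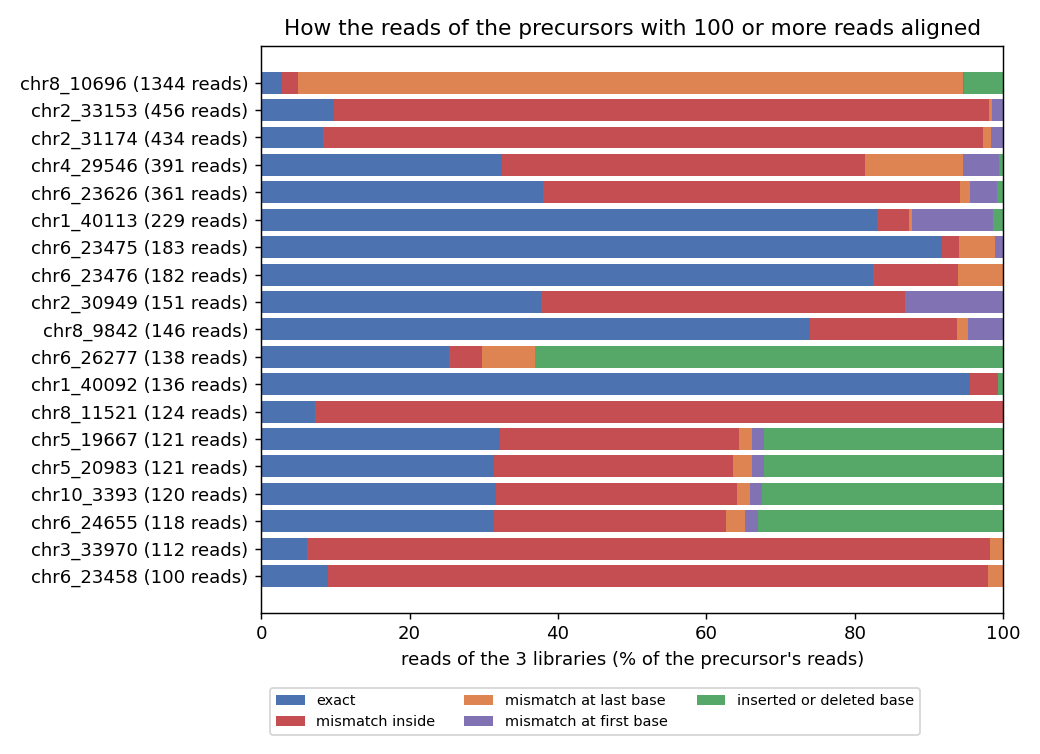
Reads of the 19 precursors with 100 or more reads (rows) by how they aligned, as % of each precursor's reads over the 3 libraries (x axis). chr1_40092 had 95.6% exact reads and chr8_10696 2.83%, most of the rest being mismatched at the last base.

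Related tags ran through several of these precursors. The most read tag of chr8_9842 differed from that of chr8_11521 at 2 positions (T7C and G8A, first the base of chr8_9842), and both ended in the same 13 bases. Those of chr6_23458 and chr2_33153 were complementary over 14 bases, in capitals here.
chr6_23458: TCACCTAGGACGAGgacatgg
chr2_33153: CTCGTCCTAGGTGAaacagcc
Over these bases the tags of different predicted hairpins were reverse complements of each other. Each tag had a mismatch to its own precursor within these bases (A12G at chr6_23458 and A4G at chr2_33153). The complementarity is thus that of the tags and not of the precursor sequences.

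The 64 precursors together took 2.24% of the aligned reads in NP (1103 reads, 95% Wilson interval 2.11% to 2.37%), 2.41% in Ov199 (2272 reads, 2.32% to 2.51%) and 2.52% in RNAi (1581 reads, 2.40% to 2.65%), each tag counted once. The shares were close, with the intervals of NP and RNAi just apart. They made up 7.99%, 9.09% and 12.3% of the reads at predicted precursors, a share that also moves with the reads at the other predicted precursors. In the sum of 6183 reads, by contrast, a read counts at each precursor where it aligned. The 5 most read precursors held 48.3% of this sum, and 23 of the 64 had fewer than 20 reads. Reads were found in all 3 libraries at 56 precursors and in a pair of libraries at 8.

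Tag lengths within the 64 precursors differed a little between libraries, where a read at several precursors again counts at each. In the order NP, Ov199, RNAi, 30.4%, 36.6% and 34.6% of their reads were 21 nt long, and 35.5%, 28.3% and 36.4% were 22 nt long. Reads of 24 nt, the usual length of siRNAs from repeats, made up 7.54%, 7.29% and 6.82%. Such reads exceeded 20% at 4 precursors, of which chr8_11521 (29.0%) and chr6_23458 (27%) had most reads. Among the 5 precursors with most reads at 20 nt, chr7_18949 had 15, 40 and 27 reads, of which 89.0% ended at the same last base, and its tags of 20 and 21 nt had 3, 19 and 13 reads and 6, 11 and 2 reads. chr11_13052 had 24, 51 and 21 reads, and its most read tag was only 16 nt long (7, 1 and 6 reads). That tag was just ahead of a tag of 20 nt that ended at the same base (0, 10 and 3 reads). For both precursors the tag of 20 nt is printed here.
chr7_18949: tgccttgactgtttgtaaag
chr11_13052: caatttcaagatgatagggt

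To compare the lines, the reads at each precursor and all other aligned reads were set against each other in a pair of libraries by Fisher's exact test, two-sided, with adjustment over all precursors. What is compared is a pair of libraries and not the lines themselves, since the spread between plants was not measured. It called 14 of the 64 precursors in 1 or more comparisons, 22 calls in all, and none in all 3. These counts take chr6_23475 and chr6_23476 separately, although they had 147 reads in common. In each comparison the share of the 64 called was below that of all precursors tested, set side by side with no test. For Ov199 against NP it was 9.38% against 16.9%, and for RNAi against NP 6.25% against 12.976%. For RNAi against Ov199 it was 18.8% against 19.6%, so calls were not more frequent among the 64.

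For Ov199 against NP, 4 of the 64 were called higher and 2 lower, where over all 722 precursors tested 7.34% were called higher and 9.56% lower. The share of the 64 called, 9.38%, was thus below that of all precursors. An unadjusted p under 0.05 was found at 11 of the 64 and at 189 of all 722. The median log2 fold (normalized count + 10) was 0.15 for the 64 and -0.01 for all precursors. By fold alone, 19 of the 64 lay past 2-fold in either direction, against 40.7% of all precursors.

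Higher in the Ov199 library were chr8_9842, chr2_29780, chr2_30448 and chr4_26628, and each had a most read tag with few or no reads in NP.
chr8_9842: ttaggatgaggacgtggcatc
chr2_29780: gattctgtgtgtgtgtcttggt
chr2_30448: tcgattgtagtgatgggcacc
chr4_26628: gaggctgttggattggaaacc
chr8_9842 had 20 NP, 104 Ov199 and 22 RNAi reads, a ratio of Ov199 to NP of 2.73 (1.68 to 4.64, Fisher's exact test, adjusted p = 1.1e-04). The log2 fold was 1.42 with all reads, 2.60 with shared reads divided among their precursors and 2.44 with exact reads only. Its most read tag was found 53 times in Ov199 and not in the other libraries. Reads ending at the last base of this tag numbered 2, 78 and 1, and the rest 18, 26 and 21, so the difference lay in this set of ends. All 20 reads in NP and 21 of the 22 in RNAi also aligned to chr2_33153, against 29 of the 104 in Ov199. chr2_29780 had 3, 41 and 2 reads, a ratio to NP of 7.16 (2.28 to 36.2, adjusted p = 5.2e-04 by Fisher's exact test). Its most read tag, a run of TG repeats in the middle, had 20 reads in Ov199 and none in the others. chr2_30448 had 3, 25 and 19 reads, a ratio to NP of 4.37 (1.33 to 22.6, adjusted p = 0.049 by Fisher's exact test), which passed only just. None of its reads lay at another precursor. With the shared reads of other precursors divided, its log2 fold stayed at 1.96. Its call was then lost through the adjustment over all precursors alone (adjusted p = 0.065 by Fisher's exact test). chr4_26628 had 0, 14 and 8 reads and was at least 2.45-fold higher in Ov199 than the 3 reads that a count of 0 allows (adjusted p = 0.027 by Fisher's exact test). This fold takes the 14 reads without their counting error, and the exact lower 95% limit of the ratio was 1.74. With exact reads only the calls of chr2_30448 and chr4_26628 were lost (adjusted p = 0.088 and 0.12), while their log2 folds were 1.92 and 3.97 against 1.96 and 3.99 with all reads.

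Lower in the Ov199 library were chr6_23475 and chr6_23476, which had 147 reads in common and are therefore 1 signal.
chr6_23475, 22 nt: aacaccggattcgaatcttttg
chr6_23475, 21 nt: aacaccggattcgaatctttt
chr6_23475 had 69 NP, 38 Ov199 and 76 RNAi reads, a ratio of Ov199 to NP of 0.289 (0.189 to 0.435, adjusted p = 5.9e-09 by Fisher's exact test). The difference lay in the longer reads. The tag of 22 nt had 33, 3 and 29 reads, while the tag of 21 nt, which lacks its last base, had 5, 20 and 11. Reads of 22 nt made up 55.1%, 15.8% and 44.7% of the precursor's reads in NP, Ov199 and RNAi, and reads of 21 nt 7.25%, 65.8% and 22.4%. In normalized counts the reads of 21 nt were 101, 266 and 271, so they were not lower in Ov199 than in NP. chr6_23476 had 62, 35 and 85 reads, and the ratio of Ov199 to NP was 0.296 (0.190 to 0.455).

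For RNAi against NP, 3 of the 64 were called higher and 1 lower, where 7.76% of all 709 precursors tested were called higher and 5.22% lower. The median log2 fold was 0.07 for the 64 and 0.06 for all precursors. An unadjusted p under 0.05 was found at 9 of the 64 and at 157 of all 709. By fold alone, 21 of the 64 were past 2-fold, against 40.8% of all precursors.

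chr1_40092, with the precise tag printed above, had 25, 46 and 65 reads, or 507, 489 and 1036 normalized counts in NP, Ov199 and RNAi. The RNAi library was high and the others were alike. The ratio of RNAi to NP was 2.05 (1.27 to 3.39, adjusted p = 0.019 by Fisher's exact test) and that of RNAi to Ov199 2.12 (1.43 to 3.17, adjusted p = 9.6e-04 by Fisher's exact test). At chr1_40092 94.1% of the reads had 1 first base, 95.6% were exact and none lay at another precursor. It was the called precursor of most reads among those with the cleanest pattern, and it had no read on the opposite arm. chr2_30448 was again higher, with a ratio to NP of 4.98 (1.47 to 26.3, adjusted p = 0.036 by Fisher's exact test). With the shared reads of other precursors divided, its log2 fold stayed at 2.14. Its call was again lost through the adjustment alone (adjusted p = 0.067 by Fisher's exact test). chr8_10696 was higher by a ratio of 1.32 (1.14 to 1.53, adjusted p = 0.0017 by Fisher's exact test), the smallest of these differences. chr6_23458 was lower, with 36 NP, 49 Ov199 and 15 RNAi reads and a ratio of 0.328 (0.167 to 0.614, adjusted p = 0.0024 by Fisher's exact test), and 9.0% of its reads were exact. With exact reads only chr1_40092 alone was called, and the adjusted p was 0.069 for chr2_30448, 0.14 for chr8_10696 and 0.56 for chr6_23458. Their log2 folds from exact reads were 2.06, 1.43 and -1.93, against 2.14, 0.40 and -1.57 with all reads.

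For RNAi against Ov199, 5 of the 64 were called higher and 7 lower, where 11.9% of all 730 precursors tested were called higher and 7.67% lower. The share of the 64 called was 18.8%, close to the 19.6% of all precursors. The median log2 fold was -0.17 for the 64 and 0.04 for all precursors. By fold alone, 20 of the 64 were past 2-fold, against 43.0% of all precursors.

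Higher in RNAi were chr6_23475 and chr6_23476 (ratios of 3.00, 2.01 to 4.56, and 3.65, 2.43 to 5.57), chr1_40092, chr8_10696 (1.36, 1.20 to 1.54) and chr1_37700. The last had 3, 0 and 6 reads, all of 1 tag, and was at least 3.00-fold higher than the limit of 3 reads in Ov199 (adjusted p = 0.023 by Fisher's exact test), with an exact lower 95% limit of the ratio of 1.77. Lower in RNAi were chr8_9842 with a ratio of 0.318 (0.191 to 0.507) and chr2_29780 with 0.0732 (0.00858 to 0.282), which were also high in Ov199 against NP. For chr8_9842 the log2 fold was -1.63 with all reads, -2.59 with shared reads divided and -2.14 with exact reads. chr12_8693, with 13, 31 and 5 reads, had a ratio of 0.242 (0.0735 to 0.628, adjusted p = 0.0073 by Fisher's exact test). chr1_40871, the precursor that overlaps osa-MIR319b, had 12, 30 and 6 reads and a ratio of 0.300 (0.102 to 0.733, adjusted p = 0.021 by Fisher's exact test). Its call was lost when reads at several precursors were divided among them (adjusted p = 0.29). chr1_40927 had 3, 12 and 0 reads and was at least 2.66-fold lower in RNAi, again against 3 reads (adjusted p = 0.016 by Fisher's exact test), with an exact upper 95% limit of the ratio of 0.540. chr6_23626 was lower by a ratio of 0.695 (0.532 to 0.900), with 86, 188 and 87 reads in 126 tags. The call of chr8_10696 was lost with adapter-trimmed totals (adjusted p = 0.18). chr6_23458 was lower too, and its call was lost with exact reads only (adjusted p = 0.87) and with shared reads divided (adjusted p = 0.15), while its log2 fold was -1.09 with all reads, -1.09 with exact reads and -0.93 with shared reads divided.

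**Figure D4:**
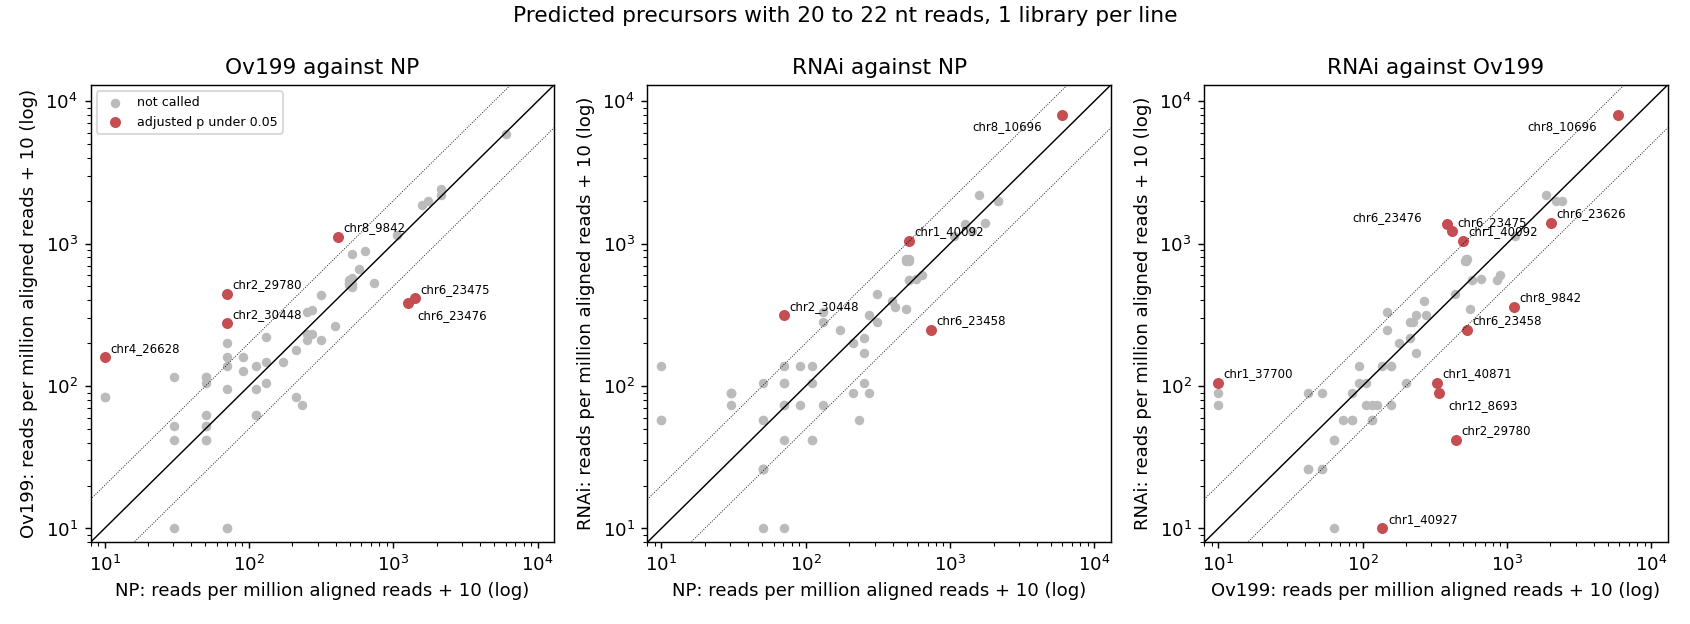
Normalized count + 10 of each of the 64 precursors in 1 library against another, on log axes, in 3 panels. Red points were called (6, 4 and 12 from left to right), the solid line marks equal levels and the dotted lines 2-fold.

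**Figure D5:**
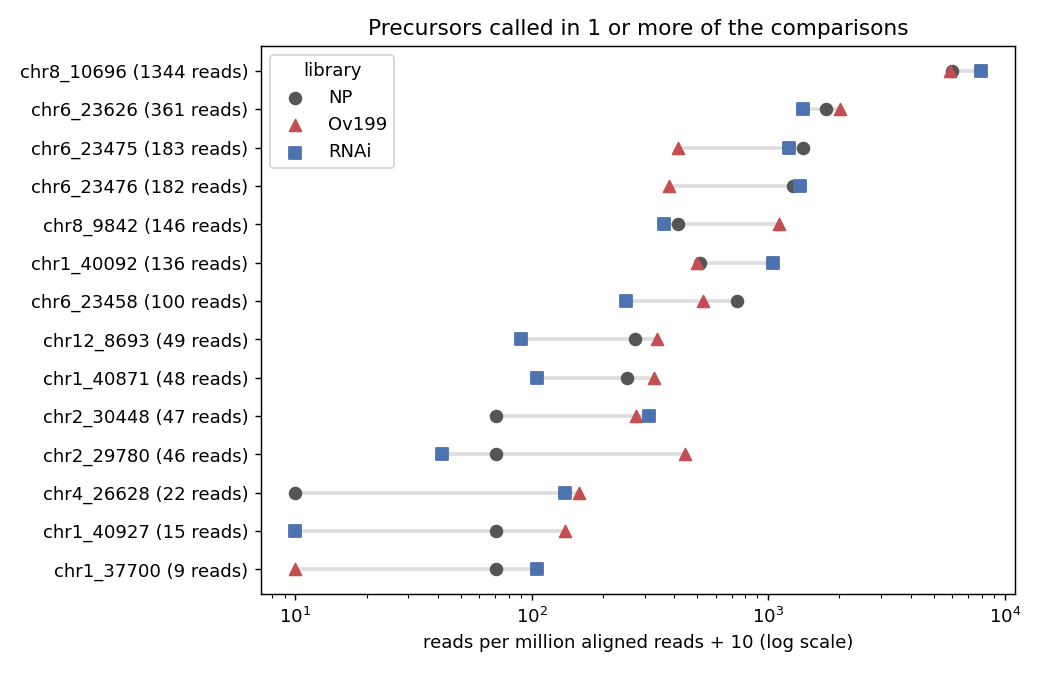
Normalized count + 10 (x axis, log scale) of the 14 called precursors in NP (circles), Ov199 (triangles) and RNAi (squares), 1 library each. The Ov199 triangle stands apart from the other marks on the left for chr6_23475 and chr6_23476 and on the right for chr8_9842 and chr2_29780, and the RNAi square on the right for chr1_40092.

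Other strongly read precursors were not called in any comparison with total aligned reads, and some of these results turned on the scaling. chr2_33153 had 105, 227 and 124 reads, with a ratio of Ov199 to NP of 1.13 (0.895 to 1.44) and of RNAi to NP of 0.929 (0.711 to 1.22). Its ratio of RNAi to Ov199 was 0.820 (0.653 to 1.03, adjusted p = 0.24 by Fisher's exact test). chr6_26277 had 25, 79 and 34 reads, a ratio of Ov199 to NP of 1.66 (1.04 to 2.71, adjusted p = 0.13 by Fisher's exact test) and a ratio of RNAi to Ov199 of 0.646 (0.419 to 0.977, adjusted p = 0.13 by Fisher's exact test). chr2_30949 had 31, 83 and 37 reads in 61 tags, and its ratio of Ov199 to NP was 1.40 (0.919 to 2.19). Its ratio of RNAi to Ov199 was 0.669 (0.441 to 0.997, adjusted p = 0.15 by Fisher's exact test). All 3 were called lower in RNAi than in Ov199 with TMM totals (adjusted p = 0.026, 0.033 and 0.039 for chr2_33153, chr6_26277 and chr2_30949) and with adapter-trimmed totals (adjusted p = 0.0037, 0.015 and 0.015). chr6_26277 was called higher in Ov199 than in NP with either (adjusted p = 0.048 and 0.019), and chr11_13052 lower in RNAi than in Ov199 with adapter-trimmed totals only (adjusted p = 0.041). DESeq2 totals added no call. chr7_18374, of the cleanest group, had 6, 13 and 20 reads and a ratio of RNAi to NP of 2.62 (1.02 to 7.98, adjusted p = 0.21 by Fisher's exact test). For precursors with few reads the intervals were wide, as for chr12_7644 with 6, 20 and 17 reads and a ratio of RNAi to NP of 2.23 (0.838 to 6.90).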

How the data were processed

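RNA pooled from leaves, flowers and stems of each line was sequenced as 1 small RNA library. The authors trimmed and collapsed the reads, predicted precursors with miRDeep2 and deposited the count of each tag with its place, mismatches and inserted or deleted bases on known and predicted precursors, without normalization. How the alignment (by Novoalign, as the deposited files are labelled) was set is not given in the sources used here. Precursor sequences and a genome were not used here, so no genomic position or hairpin fold is given.

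A tag was counted once at each precursor where it aligned. Precursors were compared by Fisher's exact test, two-sided (scipy 1.17.1), with Benjamini-Hochberg adjustment over all precursors with a read in either library (threshold 0.05). This comparison was tried on simulated libraries that held counting error only, so the trial did not cover spread between plants. Ratios have exact conditional 95% intervals. Folds were taken on the normalized count + 10 scale. Tags tied as the most read at a precursor were settled by length, the longer being taken, and the shorter was tried after seeing the data. Opposite-arm tags overlap the most read tag by no base, and duplexes were folded with ViennaRNA 2.7.2, with a minimum of 15 pairs chosen after seeing the data. TMM (edgeR) and DESeq2 factors served as alternatives. Named precursors were the 10 most read, up to 5 in each direction per comparison by fold, those with a duplex or near it, and up to 5 overlapping known precursors. Precursors of the cleanest pattern, chr7_18949, chr11_13052, chr12_8693 and the weakly read examples were added after their values were seen. The members and lists were chosen with earlier results of these data known. The most read tag of chr8_10696 is not reported here.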

Additional observations from a re-analysis of the deposited data

How the results depend on the processing

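No paired analysis was possible because each line had 1 library, and for the same reason no replicate could be left out. Counting 2-fold differences in place of the test gave 19 precursors for Ov199 against NP, 21 for RNAi against NP and 20 for RNAi against Ov199, and 7 for the last with a pseudocount of 100. With exact reads only, 1 precursor was called for RNAi against NP, 23 had opposite-arm reads and 1 had a duplex, fewer reads being used. Precise first bases were found at 32 precursors within 1 nt and at 6 with a limit of 90%. The duplex criterion with 12 or more pairs, an alternative chosen after seeing the data, gave 4 precursors. With adapter-trimmed totals RNAi against Ov199 gave 4 higher and 11 lower, and the median log2 fold of all precursors moved by -0.25 there and by 0.22 for Ov199 against NP (by -0.18 and 0.12 with TMM totals). The other 47 counts were within 1.5 times the reported ones. Of 153 refitted folds of called precursors, none changed direction and 11 lost their call. Of the 69 tests of precursors under 20 reads, 2 gave a call.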
